A study of Mus musculus with 9 samples.

Results

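The genes described here are those that license DNA replication, the step that prepares each origin to be copied in the coming S phase. 10 genes were listed by name (Mcm2, Mcm3, Mcm4, Mcm5, Mcm6, Mcm7, Mcm10, Cdc6, Cdt1 and Cdc45), and 9 of them were measured among 25625 distinct genes with a value above 0 in at least 1 tumor. Cdt1 was not analysed here. The data were bulk RNA sequencing of 9 orthotopic tumors of Hepa1-6, a mouse hepatoma cell line, grown in the liver of male C57BL/6 mice that were 6 to 8 weeks old when purchased. 3 mice received PBS, and the other 6 received antibody against PD-1, an inhibitory receptor of T cells. All were injected intraperitoneally 5 times at intervals of 4 days, from day 10 to day 26 after implantation, and the tumors were taken on the day after the last injection. Of the antibody-treated mice, the 3 with the largest tumors formed the nonresponsive group and the 3 with the smallest tumors formed the responsive group, while tumors of intermediate response were left out. The groups of antibody-treated mice were thus defined by tumor size after treatment. All tumors came from 1 cell line, first grown under the skin and then implanted as pieces into the liver, and each sequenced tumor was that of 1 mouse.

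Licensing starts at the origin recognition complex, which recruits Cdc6 and Cdt1. Together these load the Mcm2 to Mcm7 ring, the core of the replicative helicase, onto DNA in an inactive form during G1. In S phase, Cdc45 and the GINS complex join the ring to form the active helicase, and Mcm10 helps it to start unwinding. Cdt1 is then held back by geminin (Gmnn) and degraded, so that no origin is licensed again in the same cycle. Transcripts of these genes are made under E2F control as cells pass from G1 into S phase, and resting hepatocytes make few of them, so the proteins are used as marks of proliferating tumor cells in liver cancer.

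No licensing gene differed between any pair of groups beyond the spread within groups. The larger contrast lay between single tumors. The first nonresponsive and the first responsive tumor had the lowest values for 8 of the 9 measured genes, and the third nonresponsive tumor had the highest for 5 of them. Values are given as FPKM, fragments scaled to the length of the transcript and the size of the library, so that levels of different genes can be set side by side per length. In bulk tissue, fewer cells that express a gene and less of its RNA per cell cannot be told apart.

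The 6 ring subunits were the most abundant of the licensing transcripts. Mcm2, a subunit that also binds histones, was measured at 61.4, 36.3 and 56.6 FPKM in the PBS tumors, at 8.26, 31.2 and 66.5 in the nonresponsive tumors, and at 9.82, 41.2 and 26.2 in the responsive tumors. The first nonresponsive and first responsive tumors were far below the other 7, and the groups overlapped. Mcm3 was measured at 72.7, 46.7 and 72.3 FPKM in the PBS tumors, at 12.2, 46.4 and 86.5 in the nonresponsive tumors, and at 14.0, 47.8 and 32.9 in the responsive tumors. It had the same pair of low tumors, and its highest value was again in the third nonresponsive tumor.

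Mcm4, Mcm6 and Mcm7 form a subcomplex that can unwind DNA in vitro. Mcm4 was measured at 19.5, 15.3 and 15.9 FPKM in the PBS tumors, at 7.35, 13.3 and 17.3 in the nonresponsive tumors, and at 7.97, 11.4 and 15.4 in the responsive tumors. Mcm6 was measured at 80.6, 55.6 and 66.4 FPKM in the PBS tumors, at 15.0, 50.9 and 135.0 in the nonresponsive tumors, and at 16.9, 56.7 and 42.1 in the responsive tumors. Mcm7 was measured at 91.2, 52.7 and 68.6 FPKM in the PBS tumors, at 10.7, 44.3 and 92.7 in the nonresponsive tumors, and at 11.5, 64.6 and 37.0 in the responsive tumors. In each of these 3 genes the first nonresponsive tumor was lowest and the first responsive tumor next to it, with all groups overlapping. The highest Mcm6 value, that of the third nonresponsive tumor, was given for an entry shared with the neighboring gene Dars, a tRNA synthetase gene. In the other 8 tumors Dars had an entry of its own, at 27.0 to 52.6 FPKM. The Mcm7 entry held the microRNA genes Mir25 and Mir93, which lie within Mcm7, in all 9 tumors.

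Mcm5, which with Mcm2 forms the gate through which the ring opens, was measured at 46.3, 24.1 and 36.6 FPKM in the PBS tumors, at 9.11, 25.7 and 41.2 in the nonresponsive tumors, and at 12.0, 25.4 and 28.5 in the responsive tumors. The 2 low tumors were the same as for the other subunits, and the remaining values of the 3 groups were interleaved. Cdc6, the loader ATPase, was measured at 12.9, 6.35 and 10.4 FPKM in the PBS tumors, at 1.42, 7.64 and 14.3 in the nonresponsive tumors, and at 1.60, 5.88 and 4.28 in the responsive tumors. All 3 responsive tumors lay below all PBS tumors for Cdc6, although the highest responsive value and the lowest PBS value were close. The nonresponsive tumors spanned the values of both other groups.

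The factors that act when origins fire, Cdc45 and Mcm10, had lower median levels than the ring subunits. Cdc45 was measured at 10.4, 7.91 and 8.45 FPKM in the PBS tumors, at 4.09, 7.86 and 9.36 in the nonresponsive tumors, and at 4.02, 8.47 and 6.20 in the responsive tumors. It was the only measured gene whose lowest value was in the first responsive tumor rather than the first nonresponsive tumor. Mcm10 was measured at 6.53, 4.94 and 6.89 FPKM in the PBS tumors, at 3.55, 16.7 and 9.73 in the nonresponsive tumors, and at 5.58, 8.92 and 6.98 in the responsive tumors. Mcm10 departed from the common order, since its second lowest value was in a PBS tumor. Its highest value, in the second nonresponsive tumor, was given for an entry shared with Optn, an autophagy receptor gene, which had its own entry at 13.1 to 20.9 FPKM in the other 8 tumors.

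**Figure D1:**
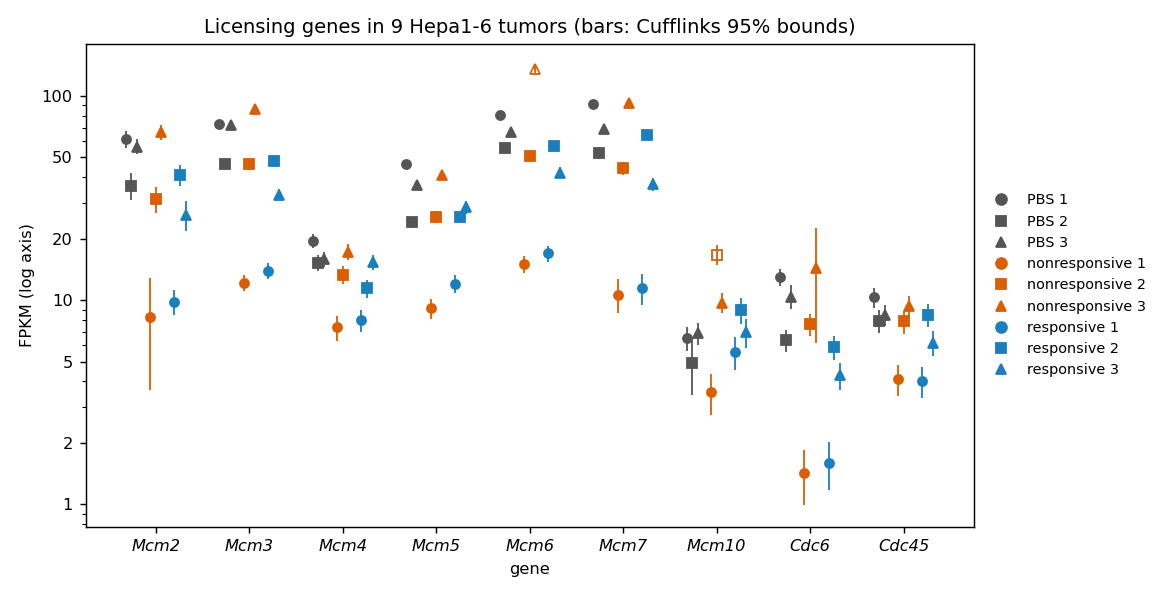
FPKM of the 9 measured licensing genes in each tumor on a log axis, with the 95% bounds given by Cufflinks as bars, colors for groups and marker shapes for tumors 1 to 3 of each group. Open markers are values of an entry shared with Dars (Mcm6) or Optn (Mcm10), and the first nonresponsive and first responsive tumors lie lowest in 8 of the 9 genes.

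The ratio of the highest to the lowest tumor was 10.1 for Cdc6, 9.02 for Mcm6, 8.70 for Mcm7, 8.06 for Mcm2, 7.11 for Mcm3, 5.09 for Mcm5, 4.70 for Mcm10, 2.65 for Mcm4 and 2.57 for Cdc45. Without the values of the entries shared with Dars and Optn, a choice made after the values were seen, the ratio was 5.38 for Mcm6 and 2.75 for Mcm10. The median of the 9 ratios was 7.11 with those values and 5.38 without them, and it was 2.37 over the 10783 genes with an FPKM of at least 1 in every tumor. A median of 74.8% of the variation of the licensing genes on the log2(FPKM + 1) scale lay within groups, against 68.9% over all genes tested. The first nonresponsive and first responsive tumors were the lowest 2 of the 9 tumors for 25.2% of all genes tested.

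Compared with the geometric mean of the PBS tumors, Mcm7 was 6.49-fold lower in the first nonresponsive tumor and 6.03-fold lower in the first responsive tumor, and Cdc6 was 6.69-fold and 5.93-fold lower. The corresponding ratios were 6.08 and 5.11 for Mcm2, 2.28 and 2.11 for Mcm4, and 2.16 and 2.20 for Cdc45. For Mcm10 they were 1.71 and 1.08, the smallest of the 9 genes. These ratios describe 2 single tumors and carry no test. The bounds that Cufflinks gives for each value had a median half-width of 9.49% of the value, and 5 of the 81 values had a half-width over 25%. The widest were 56.9% for Cdc6 in the third nonresponsive tumor, its highest value, and 56.3% for Mcm2 in the first nonresponsive tumor, its lowest. The highest-to-lowest ratios of Cdc6 and Mcm2 rest on these values. The Cdc6 bounds, 6.17 to 22.5 FPKM, held the value of the first PBS tumor, 12.9 FPKM. In 8 of the 9 genes, with Mcm10 as the exception, the bounds in both of these tumors lay below the bounds in every PBS tumor. These bounds cover the uncertainty of quantification in 1 library and not the difference between mice.

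By median FPKM over the 9 tumors, the genes ranked as Mcm6 (55.6), Mcm7 (52.7), Mcm3 (46.7), Mcm2 (36.3), Mcm5 (25.7), Mcm4 (15.3), Cdc45 (7.91), Mcm10 (6.89) and Cdc6 (6.35). Mcm3 exceeded Mcm2, Mcm5 exceeded Mcm4 and Mcm4 exceeded Cdc45 in 9 of 9 tumors. The other neighbors in this order were not separated beyond their spread. Mcm6 exceeded Mcm7 in 6 tumors, Mcm7 exceeded Mcm3 in 5, Mcm2 exceeded Mcm5 in 6, Cdc45 exceeded Mcm10 in 4 and Mcm10 exceeded Cdc6 in 5.

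The 6 ring subunits are assembled in equal numbers, so their transcripts were also expressed as shares of the summed Mcm2 to Mcm7 FPKM. The sum was 372, 231 and 316 FPKM in the PBS tumors, 62.5, 212 and 439 in the nonresponsive tumors, and 72.2, 247 and 182 in the responsive tumors. The Mcm4 share was 11.8% in the first nonresponsive tumor and 11.0% in the first responsive tumor, above the range of 4.63% to 8.46% in 6 other tumors and the 3.93% of the third nonresponsive tumor. The Mcm7 share was 17.0% and 15.9% in these 2 tumors and 20.3% to 26.1% in the 6 others, and the Mcm2 share was 13.2% and 13.6% against 14.4% to 17.9%. Mcm4 thus took a larger part, and Mcm7 a smaller part, in the 2 tumors where the sum was lowest. The Mcm2 share was also smaller there, but its value in the first nonresponsive tumor was imprecise. That value, 8.26 FPKM, had Cufflinks bounds from 3.61 to 12.9 FPKM, and bounds of the shares were not worked out. The Mcm5 share was 14.6% and 16.7% in the low tumors and 10.3% to 15.6% in the 6 others. Mcm3, at 19.5% and 19.3% against 18.1% to 22.8%, and Mcm6, at 23.9% and 23.5% against 21.0% to 24.1%, took shares within the range of the 6 others. The third nonresponsive tumor is kept apart in these ranges since its Mcm6 share of 30.7% includes Dars.

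**Figure D2:**
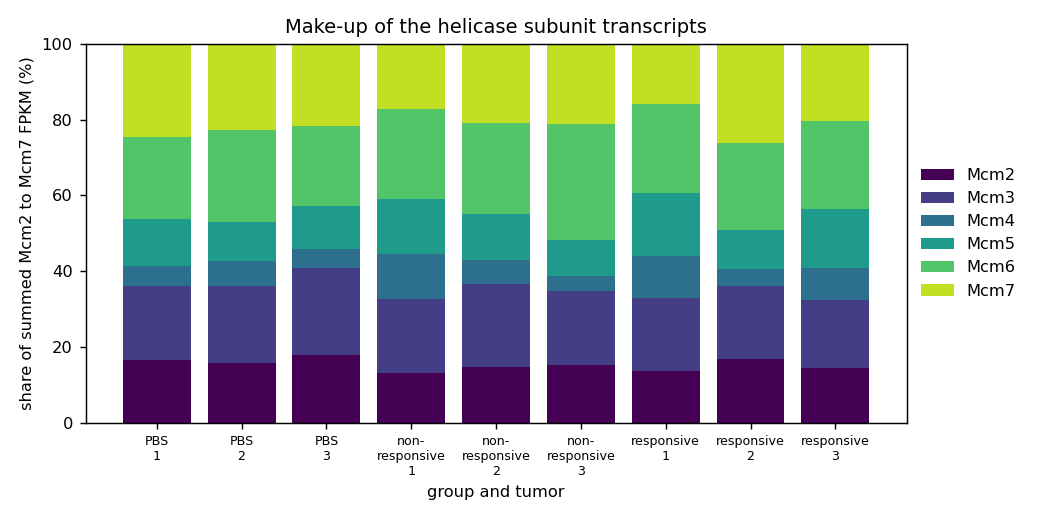
Share of the summed Mcm2 to Mcm7 FPKM taken by each subunit (percent, stacked bars from 0 to 100) in each of the 9 tumors. The band of Mcm4 is widest in the first nonresponsive (11.8%) and first responsive (11.0%) tumors, and the Mcm6 band of the third nonresponsive tumor includes Dars.

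The promoters of the measured licensing genes were searched for letters of an E2F motif (TTTCCCGC, TTTGGCGC, TTTGCCGC or TTTCGCGC, on both strands) and of the CCAAT box (CCAAT, both strands). RefSeq windows of build GRCm38.p6 hold 250 bases before and 50 bases from the start site on, and 8 of the 9 measured genes had a window. The E2F letters were in windows of 5 genes, Mcm3, Mcm5, Mcm6, Mcm7 and Cdc6, and in 744 of 32851 windows in the table (2.26%). They were not in the windows of Mcm2, Mcm10 and Cdc45. Mcm7 also had another window with 0 E2F matches, and a count of genes and a count of windows are not the same measure. The CCAAT letters were in windows of 7 of the 8 genes, with Cdc6 as the exception, and in 37.4% of windows in the table. The stretches around the matches upstream of the start site are shown because they hold the matched letters in capitals. Where matches overlap, as in Mcm5 and for the first pair in Mcm6, they form 1 run of capitals. Mcm3 had both of its matches after the start site, at positions 20 and 39. Matches are descriptions of letters and not evidence of binding.
Mcm5, chr8:75109316-75109407, plus strand, matches at -153 and -149 from the start site:
Mcm5: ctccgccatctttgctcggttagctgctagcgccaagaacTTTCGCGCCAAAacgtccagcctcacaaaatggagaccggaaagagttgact
Mcm6, chr1:128359706-128359855, minus strand, matches at -110, -106 and -47 from the start site:
Mcm6: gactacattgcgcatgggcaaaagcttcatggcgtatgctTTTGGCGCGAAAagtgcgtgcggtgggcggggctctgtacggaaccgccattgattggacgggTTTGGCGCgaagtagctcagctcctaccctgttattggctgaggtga
Mcm7, chr5:138172001-138172088, minus strand, match at -165 from the start site, with another at 17 outside the stretch:
Mcm7: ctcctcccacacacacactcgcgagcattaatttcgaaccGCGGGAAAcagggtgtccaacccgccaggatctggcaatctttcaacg
Cdc6, chr11:98907973-98908060, plus strand, match at -138 from the start site:
Cdc6: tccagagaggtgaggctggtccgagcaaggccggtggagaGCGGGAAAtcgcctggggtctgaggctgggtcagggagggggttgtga

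The ranges of genes with and without these letters overlapped. Of genes whose windows lacked them, Mcm2 ranged 8.06-fold over the tumors, Mcm10 4.70-fold (2.75 without the Optn entry) and Cdc45 2.57-fold. Of genes whose windows held them, Cdc6 ranged 10.1-fold, Mcm6 9.02-fold (5.38 without the Dars entry), Mcm7 8.70-fold, Mcm3 7.11-fold and Mcm5 5.09-fold. A link between the letters and these ranges was not tested.

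Responsive tumors were first compared with nonresponsive tumors, the main contrast of the study. All 9 genes had a lower mean log2(FPKM + 1) in the responsive group, and none differed at an unadjusted p under 0.05 (limma), a threshold passed by 5.48% of the 14457 genes tested. The median difference of the 9 genes was -0.23 on the log2(FPKM + 1) scale, against -0.07 over all genes tested. The largest difference was that of Cdc6, at 3.92 ± 2.16 FPKM in the responsive and 7.79 ± 6.45 FPKM in the nonresponsive tumors (mean ± SD, n = 3 each). On the log2 scale it was -0.59 with a standard error of 0.68 and a 95% interval from -2.17 to 0.99 (limma, adjusted p = 0.942). The smallest was that of Mcm5, at -0.05 with an interval from -1.35 to 1.24. Unadjusted limma p-values of the 9 genes ran from 0.415 to 0.925, adjusted p-values from 0.942 to 0.997, and two-sided exact permutation p-values from 0.5 to 0.9, where 0.1 is the smallest that 3 against 3 tumors allow. The intervals were 1.53 to 3.87 wide on the log2 scale, so that 2-fold differences in either direction lay within the intervals of Mcm2, Mcm3, Mcm5, Mcm6 and Mcm7. The groups overlapped for all 9 genes, where 4.69% of genes tested had every responsive tumor below every nonresponsive tumor, and 0 of 9 passed an adjusted p of 0.05, where 0.0899% passed.

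The sign of this comparison rested on single tumors. Without the third nonresponsive tumor the median difference of the 9 genes was 0.22, without the first responsive tumor it was 0.10, and without the first nonresponsive tumor it was -1.01. In the last case Cdc6 (-1.34) and Mcm10 (-0.78) passed an unadjusted limma p of 0.05, where 1521 genes passed, against 792 with all tumors. Without both the first nonresponsive and first responsive tumors, an alternative chosen after the values were seen, the median was -0.46 and 0 of 9 genes passed. For Mcm10, adding Optn to every tumor turned the difference from -0.24 to 0.36, and leaving out the second nonresponsive tumor turned it to 0.20. For Mcm6, adding Dars gave -0.12 in place of -0.45, and leaving out the third nonresponsive tumor gave 0.30.

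**Figure D3:**
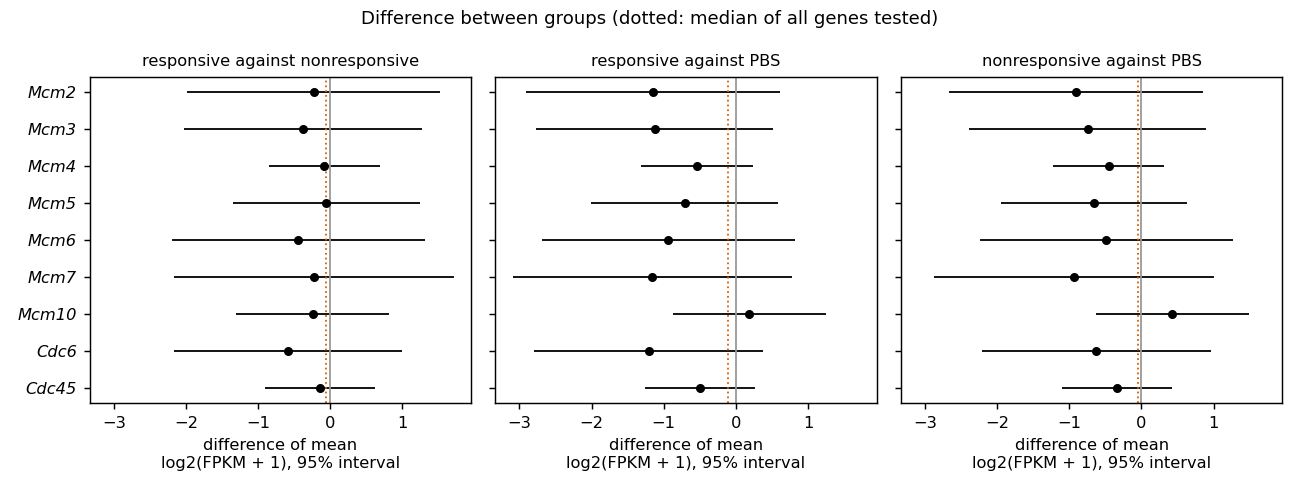
Difference of mean log2(FPKM + 1) between groups for the 9 licensing genes (points) with limma 95% intervals (bars), in 3 comparisons with 3 tumors a group. Every interval crosses the grey line at 0, and the dotted line marks the median of the 14457 genes tested.

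Responsive tumors were next set against PBS tumors. The mean was lower in responsive tumors for 8 of the 9 genes and higher for Mcm10, and 0 of 9 passed an unadjusted p of 0.05 (limma), where 14.3% of genes tested passed. The median difference was -0.93 on the log2 scale, against -0.10 over all genes tested. For Cdc6 the means were 3.92 ± 2.16 FPKM in responsive and 9.90 ± 3.32 FPKM in PBS tumors (mean ± SD, n = 3 each). Its log2 difference was -1.21 with a standard error of 0.68 and an interval from -2.79 to 0.37 (limma, adjusted p = 0.387), and the exact two-sided permutation p was 0.1, the smallest possible. It was the only 1 of the 9 genes whose groups did not overlap, where 16.0% of genes tested had all responsive tumors below all PBS tumors. In a limma fit of these 6 tumors alone, and in the fit without the first nonresponsive tumor, Cdc6 passed an unadjusted p of 0.05 with the same difference. It was 1 of 9 genes there, and 14.3% of genes tested passed already in the fit of all 9 tumors.

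Mcm7 and Mcm2 had the next largest differences from PBS. Mcm7 averaged 37.7 ± 26.6 FPKM in responsive and 70.8 ± 19.4 FPKM in PBS tumors (mean ± SD, n = 3 each), with a log2 difference of -1.16 and an interval from -3.09 to 0.78. Mcm2 averaged 25.7 ± 15.7 and 51.5 ± 13.3 FPKM, with a log2 difference of -1.14 and an interval from -2.90 to 0.61. The differences of the other ring subunits were -1.13 for Mcm3, -0.93 for Mcm6, -0.71 for Mcm5 and -0.54 for Mcm4. That of Cdc45 was -0.49 and that of Mcm10 was 0.19. Adjusted limma p-values of the 9 genes ran from 0.387 to 0.825, and 0.111% of genes tested had one under 0.05. Without the first responsive tumor the median difference was -0.44.

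Nonresponsive and PBS tumors were compared last. This comparison and the previous one share the PBS tumors. The mean was lower in nonresponsive tumors for 8 of the 9 genes and higher for Mcm10, and 0 of 9 passed an unadjusted p of 0.05 (limma), where 3.45% of genes tested passed. The median difference was -0.62 on the log2 scale, against -0.05 over all genes tested. The differences lay between -0.93 for Mcm7 and 0.43 for Mcm10, with adjusted limma p-values from 0.696 to 0.774 and exact two-sided permutation p-values from 0.3 to 0.7. An adjusted p under 0.05 was reached by 0.0415% of genes tested, and all 9 licensing genes overlapped between the groups, where 4.89% of genes tested had every nonresponsive tumor below every PBS tumor. Mcm7 averaged 49.2 ± 41.2 FPKM in the nonresponsive tumors, and Mcm2 averaged 35.4 ± 29.4 FPKM (mean ± SD, n = 3), so that the SD was nearly as large as the mean.

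This difference rested on the first nonresponsive tumor. Without it, the median difference of the 9 genes was -0.04, and Mcm3, Mcm6 and Cdc6 had differences of 0.02, 0.31 and 0.13. Mcm10, 1 of 9 genes, then passed an unadjusted limma p of 0.05 with a difference of 0.96. In the fit of all 9 tumors, 3.45% of genes tested passed. The Mcm10 value of the second nonresponsive tumor includes Optn, and with Optn added to every tumor the difference was -0.19. Without the third nonresponsive tumor the median was -1.20.

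**Figure D4:**
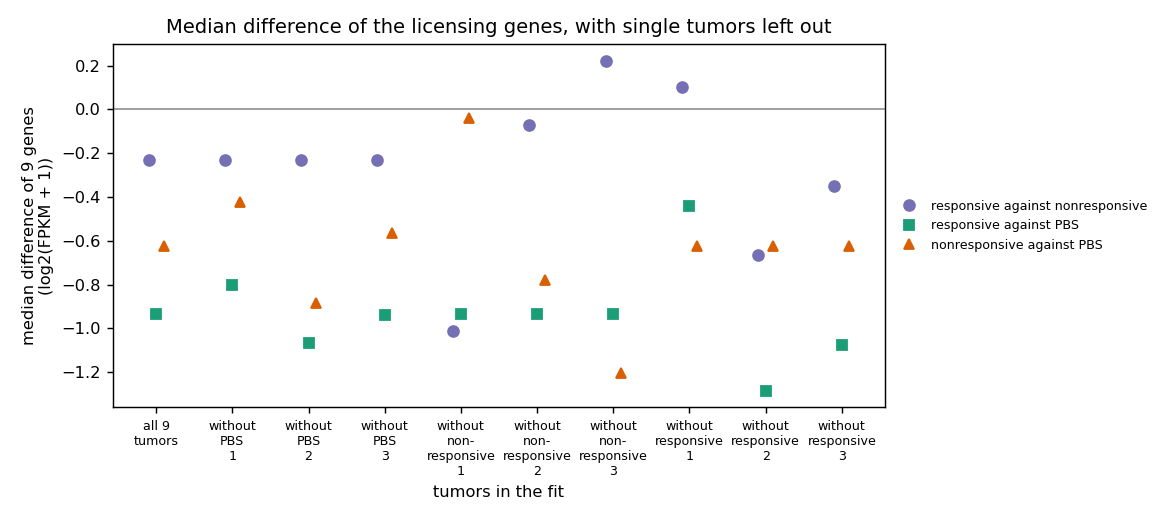
Median difference of mean log2(FPKM + 1) over the 9 licensing genes for each comparison, with all 9 tumors and with each tumor left out in turn. The median of responsive against nonresponsive tumors crosses 0, from -1.01 without the first nonresponsive tumor to 0.22 without the third.

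The other genes of origin licensing and S phase were described from lists. The origin recognition complex, the platform on which the ring is loaded, had 6 genes tested. Its most abundant members were Orc2, at 5.07 to 20.1 FPKM, and Orc3, at 11.5 to 19.8 FPKM. Orc3 and Orc5 passed an unadjusted p of 0.05 (limma) and were lower in responsive than in PBS tumors, 2 of 6 genes where 5.80% of genes tested were. Orc5, whose entry also held Gm15421, was lower against nonresponsive tumors as well, 1 of 6 genes where 2.39% of genes tested were. Orc5 was measured at 12.3, 10.5 and 11.3 FPKM in the PBS tumors, at 12.0, 11.3 and 10.8 in the nonresponsive tumors, and at 8.27, 9.79 and 8.08 in the responsive tumors. All 3 responsive tumors lay below the other 6 for Orc5, and the first nonresponsive tumor was among the high ones, unlike in the licensing genes.

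Genes that restrain or turn over licensing factors, such as geminin and the ubiquitin ligase parts Skp2 and Ddb1, had 1 of 7 genes lower in responsive than in PBS tumors at an unadjusted p of 0.05, where 5.80% of genes tested were, and 0 of 7 past it in the other comparisons. Skp2, the ligase subunit that recognizes phosphorylated Cdt1, was lower in responsive than in PBS tumors by a log2 difference of -1.03 (limma, adjusted p = 0.345). It was measured at 10.1, 4.66 and 6.69 FPKM in the PBS tumors, at 2.04, 5.51 and 7.21 in the nonresponsive tumors, and at 1.69, 4.02 and 3.16 in the responsive tumors. Pcna, the sliding clamp to which Cdt1 binds for its degradation, ranged from 61.2 to 125.7 FPKM and did not pass in any comparison.

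The calls on the next lists were single genes, read against the 5.80% of genes tested that passed as lower in responsive than in PBS tumors. Of 3 MCM relatives outside the ring, Mcmbp, which binds ring subunits off the DNA, was lower in responsive than in PBS tumors by a log2 difference of -0.70 (limma, adjusted p = 0.306). Among 12 genes of E2F factors and G1/S cyclins, the repressor E2f7 was lower in responsive than in PBS tumors, at 0.67 to 1.36 against 2.59 to 3.12 FPKM (limma, adjusted p = 0.322). No gene passed among 11 GINS and origin firing genes, 23 replication fork genes, 6 nucleotide synthesis genes and 12 mitosis genes, in any of the 3 comparisons (limma, unadjusted p under 0.05). None of the genes on these lists passed an adjusted p of 0.05.

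The first nonresponsive and first responsive tumors were the lowest 2 for 12 of 12 mitosis genes, 21 of 23 replication fork genes, 9 of 11 GINS and firing genes, 5 of 6 nucleotide synthesis genes, 8 of 12 E2F and cyclin genes, 5 of 7 inhibitor and turnover genes, 4 of 6 origin recognition genes and 1 of 3 other MCM family genes, where 25.2% of all genes tested had them lowest. Cdk1, the mitotic kinase, was measured at 201, 92.2 and 166 FPKM in the PBS tumors, at 23.1, 88.2 and 208 in the nonresponsive tumors, and at 15.4, 106 and 57.4 in the responsive tumors. Its lowest 2 tumors and its highest tumor were those of Mcm2. The list mean on the log2(FPKM + 1) scale spanned 2.20 over the tumors for the licensing genes, 3.12 for mitosis, 2.53 for nucleotide synthesis, 1.67 for origin recognition, 1.35 for GINS and firing and 1.26 for the replication fork. The fork list includes Pole2, and the firing list Donson, whose entries in all 9 tumors also held abundant genes (Rpl36al and Dnaaf2, and Atp5o).

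**Figure D5:**
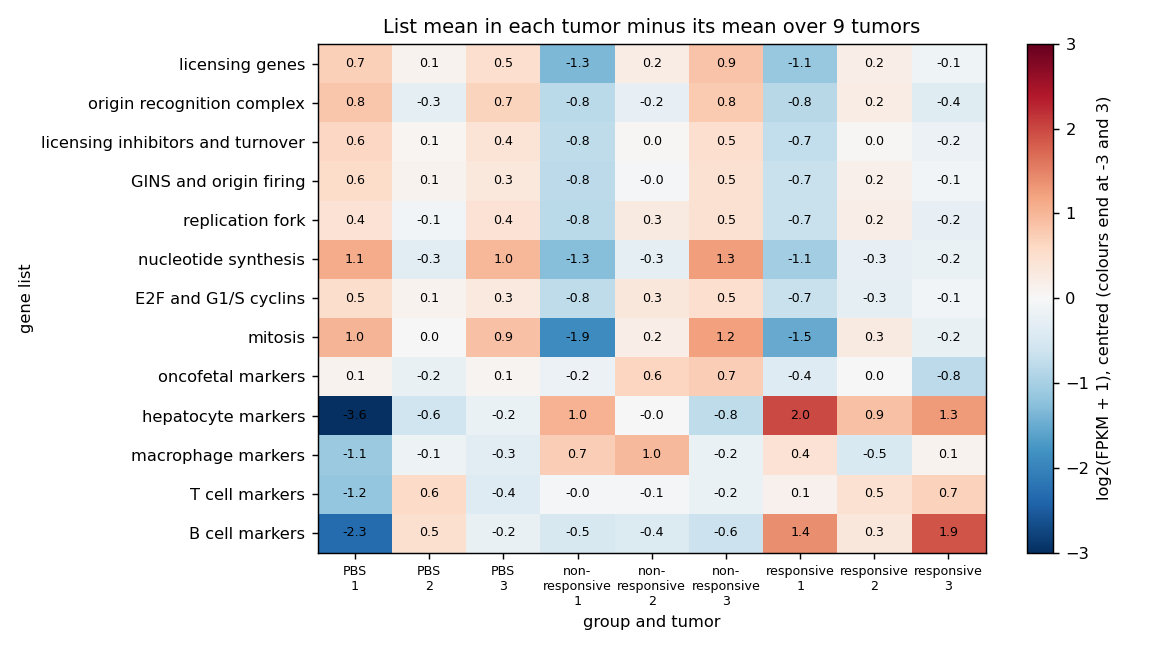
Mean log2(FPKM + 1) of each gene list in each tumor, minus the mean of that list over the 9 tumors (numbers and colors, colors ending at -3 and 3). The licensing, fork, nucleotide and mitosis rows are lowest in the first nonresponsive and first responsive tumors, where the hepatocyte row is above its mean.

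By likeness over the 9 tumors, the genes closest to the mean log2(FPKM + 1) of Mcm2 to Mcm7, among 10275 candidates outside the lists with a mean FPKM of at least 5, were Uhrf1 (Pearson r = 0.999), Phgdh (0.996), Wee1 (0.996), Kif18b (0.995) and Nek2 (0.994). These correlations are descriptions over 9 libraries chosen as the highest, with no test. Uhrf1, which guides maintenance of DNA methylation at replication forks, was measured at 44.9, 24.7 and 36.8 FPKM in the PBS tumors, at 6.03, 21.5 and 49.9 in the nonresponsive tumors, and at 6.38, 26.2 and 19.8 in the responsive tumors. Phgdh, the first enzyme of serine synthesis, ranged from 8.70 FPKM in the first nonresponsive tumor to 197 FPKM in the first PBS tumor. Wee1, which restrains Cdk1, ranged from 2.57 to 14.8 FPKM.

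Afp, the fetal liver protein made by many hepatomas, was 0.32 FPKM in the first nonresponsive and 0.65 FPKM in the first responsive tumor, against 18.2 to 25.3 FPKM in PBS tumors and 4.40 to 56.5 FPKM in the other 4 tumors. The 6 oncofetal markers, Afp among them, summed to 37.5 to 46.4 FPKM in PBS, 30.9 to 108 FPKM in nonresponsive and 11.9 to 68.8 FPKM in responsive tumors. The list as a whole did not follow Afp, since the first nonresponsive and first responsive tumors were the lowest 2 for 1 of the 6, and Igf2 was highest there, at 5.47 and 6.13 FPKM. H19 was 17.6 and 11.0 FPKM in these tumors, within the 2.87 to 39.3 FPKM of the others. The 12 hepatocyte markers summed to 460 to 5548 FPKM in PBS, 3685 to 13611 FPKM in nonresponsive and 12266 to 21582 FPKM in responsive tumors, and within each antibody-treated group the highest sum was in the tumor with low licensing genes. 11 of these 12 markers were higher in responsive than in PBS tumors (limma, unadjusted p under 0.05, 0 at an adjusted p under 0.05), where 8.53% of genes tested were, and 0 of 12 passed in the other comparisons. Alb was measured at 173, 835 and 1259 FPKM in the PBS tumors, at 2678, 1490 and 885 in the nonresponsive tumors, and at 5041, 2576 and 4396 in the responsive tumors. No hepatocyte marker was at 0 throughout a group. The part of these markers in the levels of the licensing genes was not tested.

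Neither of these 2 tumors was the highest or the lowest for the mean of the T cell, B cell, macrophage or fibroblast markers. The first PBS tumor was the lowest for each of these lists and for the hepatocyte, neutrophil, endothelial and erythroid markers. It is part of every comparison with PBS below. T cell markers summed to 42.2, 157 and 79.9 FPKM in the PBS tumors and to 123, 152 and 170 FPKM in the responsive tumors. The second PBS tumor thus lay above the first and second responsive tumors. The first nonresponsive tumor had the highest mean log2(FPKM + 1) of the neutrophil (7.14) and endothelial (3.99) markers. The first responsive tumor had the highest mean of the erythroid markers (3.78) and the lowest of the skeletal muscle markers (0.44). All 8 T cell, 6 B cell and 8 macrophage markers had a higher mean in responsive than in PBS tumors, and 3, 4 and 1 of them (C1qa) passed an unadjusted p of 0.05 in limma, where 8.53% of genes tested passed as higher. All 8 macrophage markers had a higher mean in nonresponsive than in PBS tumors, and 4 passed, where 1.80% of genes tested passed as higher. These 4 include C1qb and C1qc, which shared an entry in the first and second nonresponsive tumors. The B cell markers summed to 4.21 to 76.6 FPKM in PBS, 28.0 to 42.9 FPKM in nonresponsive and 68.3 to 227 FPKM in responsive tumors, and all 6 had a higher mean in the responsive than the nonresponsive group. Of these 6, 2 passed an unadjusted p of 0.05, where 3.09% of genes tested passed as higher. Pancreatic acinar markers summed to 1104 FPKM in the second nonresponsive tumor and to at most 18.1 FPKM elsewhere. Skeletal muscle markers summed to 297 FPKM in the third nonresponsive tumor, which had the highest Mcm2 to Mcm7 sum (Dars included), to 106 FPKM in the first PBS tumor, to 75.2 FPKM in the second responsive tumor and to at most 16.7 FPKM elsewhere. In the second responsive tumor 74.8 FPKM of this sum was Tnnt3, whose entry there also held Lsp1, a leukocyte gene, and Mylpf was listed at 0. Entries with no gene name took 19.2% to 81.5% of the summed FPKM of a tumor, and each tumor had 12533 to 13328 named entries that reached an FPKM of 1. Their part in the licensing results was not tested either.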

How the data were processed

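Tumors were grouped by their labels, 3 per group, each from 1 mouse. For each tumor the authors deposited FPKM values with bounds per gene, from transcripts that Cufflinks assembled in that tumor. The submitters' processing notes list TopHat2 2.1.1, Bowtie2 2.2.4 and build mm8. Positions in the tables differed from those of RefSeq on GRCm38 and are not printed. Numbers of fragments are not given in the tables, so that depth is unknown and precision is described by the Cufflinks bounds. A further table of the authors' own comparisons (group values, fold changes, p and q) was not used.

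FPKM was summed over all entries of a tumor naming a gene. Shared entries are stated for the licensing genes, but not for every gene of the other lists. Igf2 shared its entry with Gm49394 and H19 with Mir675 in all 9 tumors, and Mcmbp with Gm44673 in the second responsive tumor. The 14457 genes that reached an FPKM of 1 in 3 or more of the 9 tumors were fitted on log2(FPKM + 1), a scale that understates changes of low genes, with limma 3.58.1 in R 4.3.3 (trend, not robust, 6 residual degrees of freedom), all 9 tumors in 1 fit, with Benjamini-Hochberg adjustment over all genes tested. A call is an unadjusted p under 0.05. Exact permutation tests were two-sided. Tables were made with Python 3.11.15, pandas 2.3.3 and numpy 2.4.6. The fit was tested on simulated data. Intervals are at 95%. No 2 tumors held the same library, since identical values were found for 0.00692% of genes or fewer in any pair.

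The members and lists were chosen with earlier results of these data known. Named were all measured members, the 2 most abundant genes of each other list, list genes with an unadjusted p under 0.05, and the 5 genes outside the lists most like Mcm2 to Mcm7, and of these only those bearing on the text are printed. Medians are over the 9 measured members. Alternatives were a pseudocount of 0.1, no filter, upper-quartile scaling, a stricter filter (an FPKM of 5), an equal sum of named entries, a fit of the 6 tumors compared, the replicate number as a block, joined loci (genes that share an entry in any tumor summed in all) and each tumor left out.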

Additional observations from a re-analysis of the deposited data

How the results depend on the processing

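Of 243 differences of single licensing genes under the alternatives that leave out no single tumor, 235 kept their direction and their side of an unadjusted p of 0.05, 6 changed sign and 2 newly passed. With single tumors left out, 219 of 243 differences kept their direction and their side of that threshold, 20 changed sign and 4 newly passed. The cause of these changes was not tested.

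Without a filter, 1299 genes passed an unadjusted p of 0.05 between responsive and nonresponsive tumors and 1028 between nonresponsive and PBS tumors, against 792 and 499, and with a filter at an FPKM of 5 the latter count was 301. With upper-quartile scaling the responsive minus nonresponsive difference of Mcm5 was 0.00056. With joined loci, Mcm10 differed by 0.36 between responsive and nonresponsive tumors and by -0.19 between nonresponsive and PBS tumors. In a fit of only the 6 tumors compared, 1 licensing gene passed between responsive and PBS tumors, Cdc6 (-1.21), where 14.3% of genes tested passed with all 9 tumors in the fit. Without both the first nonresponsive and first responsive tumors, chosen after the values were seen, 1271 genes passed between responsive and PBS tumors. Between nonresponsive and PBS tumors 274 genes passed. Of the 9 licensing genes 1 passed there, Mcm10 (0.96), where 3.45% of genes tested passed with all 9 tumors in the fit. In the same comparison Mcm3 (0.017), Mcm6 (0.31) and Cdc6 (0.13) changed sign.

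With each tumor left out in turn, the number of genes passing ranged from 470 to 1521 (responsive against nonresponsive), 933 to 3096 (responsive against PBS) and 242 to 1684 (nonresponsive against PBS), and licensing genes passing from 0 to 2, 0 to 1 and 0 to 1. The median difference of the 9 genes ranged from -1.01 to 0.22, -1.29 to -0.44 and -1.20 to -0.04. Between responsive and nonresponsive tumors the ranges that crossed 0 were -1.01 to 0.42 for Mcm2, -1.14 to 0.22 for Mcm3, -0.40 to 0.16 for Mcm4, -0.63 to 0.40 for Mcm5, -1.24 to 0.30 for Mcm6, -1.05 to 0.45 for Mcm7, -0.78 to 0.20 for Mcm10 and -0.45 to 0.090 for Cdc45. Between nonresponsive and PBS tumors they were -1.35 to 0.017 for Mcm3, -1.24 to 0.31 for Mcm6, -0.017 to 0.96 for Mcm10 and -1.20 to 0.13 for Cdc6.

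Scaling to an equal sum of named entries moved the median of all genes tested from -0.07 to -0.24 between responsive and nonresponsive and from -0.10 to -0.23 between responsive and PBS tumors, with licensing medians of -0.42 and -1.08. The share of passing genes that were higher between responsive and nonresponsive tumors was then 21.4% in place of 56.4%, against 68.3% with upper-quartile scaling and 73.8% with 6 tumors. Tumors with the same replicate number did not deviate together in all pairs, with correlations of deviations from -0.39 to 0.48. The highest was that of the first nonresponsive and first responsive tumors. The labels do not say whether tumors of the same number belong together, and these correlations cannot decide it. With the replicate number as a block, 542, 1470 and 387 genes passed and 0 licensing genes.

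With 3 tumors a group, intervals of single licensing genes were 1.53 to 3.87 wide on the log2 scale, and the number of fragments behind each value is unknown.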
